A study of Mus musculus with 36 samples.

Results

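Glycam1, Madcam1 and Chst4, genes of lymphocyte homing and lymph node vessels, were followed through a white and a brown fat depot and the liver of mice. The sulfotransferase gene Chst3 and the lymphocyte cytokine gene Ltb were followed with them. Together these are 5 of the 19057 genes named on the array. They are read by 7 of its 45281 probes, 2 each for Chst3 and Chst4 and 1 each for the others. All 5 were found by their gene symbol in the platform annotation. They were chosen by measured values of these same data: intensities that were high in inguinal fat, that differed there between ages, and that were high for most of them on a single brown fat array, from young mice at 20 h. Their levels in inguinal fat and on that array are therefore a description and carry no test. Tests that did not serve to choose them are given for age in liver and for the daily rhythm in inguinal fat and liver. Chst4 reached the inguinal rhythm tests only through the young arrays, where it was higher. Tests in brown fat (age, rhythm, and brown fat against liver) are not independent of the choice. The young 20 h array is left out of them, and values with it stand beside them as a description. Leaving it out does not restore independence, since picking out 1 high array also drew on the low values of the others.

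The series holds 36 Illumina MouseWG-6 v2 bead arrays, 1 for each combination of 3 tissues, 2 ages and 6 harvest times (0, 4, 8, 12, 16 and 20 h). The groups are old (24 months) and young (5 months) inguinal fat, old and young brown fat, and old and young liver, with 6 arrays in each group. All animals were male C57BL/6J mice, fed chow and moved to constant dim red light 5 days before harvest. By its labels each array stands for 3 mice; pooling of their RNA is not stated, and no value for a single mouse is at hand. The design text describes the tissues as dissected from the same animals. It calls the white fat inguinal, yet its RNA step uses the abbreviation of another depot, and the treatment protocol gives 3 h between harvests where the sample labels give 4 h. The sample labels were followed in both cases.

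The tissue names were borne out by their defining genes. The adipocyte hormone gene Adipoq had intensities of 18663 to 29757 on the inguinal fat arrays and 12832 to 17195 on the brown fat arrays, against -3.71 to 161 on the liver arrays. Ucp1, the uncoupling protein of brown fat, lay between 17941 and 28584 on the brown fat arrays, and the albumin gene Alb between 1086 and 2859 on the liver arrays. The deposited intensities had been brought to nearly 1 common distribution, and 50.8 to 51.1% of the probes of each array lay above background, taken as an intensity above 8.80. Array number, 12 for each tissue, limits the precision. Values on the log2 scale below are log2 of the intensity plus 16, with values under 0 set to 0 first, so an intensity of 0 has the value 4 and changes of dim genes are understated. The level of one probe is not set against that of another.

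Lymphocytes leave the blood for a lymph node through its high endothelial venules, vessels whose lining cells display sulfated sugars that lymphocytes bind. GlyCAM-1, the product of Glycam1, is a secreted mucin that carries such sugars, and it is also made by the lactating mammary gland and found in milk. MAdCAM-1, from Madcam1, is the ligand of the integrin α4β7 in vessels of the gut and its nodes. Chst4 encodes a sulfotransferase of high endothelial venules that sulfates these sugars. Chst3 encodes a sulfotransferase that acts on chondroitin. Ltb encodes lymphotoxin beta, a membrane cytokine of lymphocytes that, through the lymphotoxin beta receptor and NF-κB, maintains lymph nodes and their high endothelial venules. The inguinal fat pad of the mouse surrounds a lymph node, and a bulk sample of it can hold that node.

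The stretch upstream of the gene start is shown for 3 of the genes, because Madcam1 and Ltb share a sequence there that Glycam1 lacks in the window read. Sequences are from RefSeq's promoter table (build GRCm38.p6), which matched all 5 genes and holds 250 bases before to 50 bases after each gene start, and they run 5′ to 3′ on the strand of the gene. Capitals mark matches to GGAAAGNCCC, where N is any base, a form of the κB element bound by NF-κB proteins. The motif was chosen after the sequences were seen.
Glycam1, chr15:103565082-103565231, minus strand, bases -150 to -1 from the gene start: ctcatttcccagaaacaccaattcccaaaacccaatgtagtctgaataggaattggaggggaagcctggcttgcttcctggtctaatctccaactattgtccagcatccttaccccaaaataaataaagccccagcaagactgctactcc
Madcam1, chr10:79664456-79664518, plus strand, bases -103 to -41: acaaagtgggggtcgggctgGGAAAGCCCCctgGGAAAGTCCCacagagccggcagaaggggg
Ltb, chr17:35194400-35194449, plus strand, bases -107 to -58: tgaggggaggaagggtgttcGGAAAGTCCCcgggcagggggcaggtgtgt
Madcam1 has 2 matches, GGAAAGCCCC at -83 to -74 and GGAAAGTCCC at -70 to -61, and Ltb has GGAAAGTCCC at -87 to -78. Searched on both strands over all 32851 promoters of the table, GGAAAGTCCC was found in 51 (0.155%) and GGAAAGNCCC in 187 (0.569%), the first being contained in the second. The wider κB consensus, which matches the same 3 sites on the opposite strand, was found in 2779 (8.46%). The windows of Glycam1, Chst4 and Chst3 hold none of these. A match is a description of the letters and was not tested as a binding site.

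In inguinal fat all 5 genes passed the filter on low values (above background on at least 6 of 12 arrays). All 5 had lower mean values in old than in young mice, and Glycam1 differed most on the log2 scale used. Glycam1 had a lowest, median and highest intensity of 58.7, 165 and 532 on the old arrays, against 614, 1142 and 3216 on the young arrays. The highest old array, from 20 h, was below the lowest young array, from 16 h, so the ages did not overlap. Old minus young, Glycam1 stood at -2.81 ± 0.39 on the log2 scale (n = 6 arrays each, paired by harvest time), 7.02-fold lower in old fat. Here and below ± is the SE of the limma fit, which shares variance between genes. The plain SE of the 6 paired differences was 0.49 for Glycam1, 0.28 for Chst3 (brighter probe), 0.39 for Ltb and 0.10 for Madcam1. The Glycam1 gap was widest at 8 h, at -4.38, and narrowest at 20 h, at -1.30. In bulk tissue fewer cells of a type and less RNA per cell cannot be told apart. Glycam1 was below the background threshold on every old brown fat and young liver array. Its level was at least 7.10-fold higher in old inguinal than in old brown fat and at least 49.8-fold higher in young inguinal fat than in young liver.

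The sulfotransferase gene Chst3 had the same order. On its brighter probe its lowest, median and highest intensities were 116, 198 and 365 in old fat, against 373, 671 and 925 in young fat. On this probe the ages did not overlap, although the highest old array, from 12 h, and the lowest young array, from 16 h, nearly met. On the second probe they overlapped, with up to 291 in old fat and down to 277 in young fat. The difference was -1.48 ± 0.23 on the brighter probe, 2.78-fold lower in old fat. The mean of the 6 paired differences was -1.39 on the second probe, which was also lower in old fat at 6 of 6 times.

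Chst4, the sulfotransferase of high endothelial venules, was dim. Its brighter probe had intensities of 4.10, 4.68 and 8.44 in old fat (lowest, median and highest), against 9.26, 19.4 and 29.3 in young fat. It was below the background threshold on all 6 old arrays and above it on all 6 young arrays. Only a bound can therefore be given: Chst4 was at least 1.41-fold lower in old fat. The second Chst4 probe was above background on 1 of 6 old and 2 of 6 young arrays and was lower in old fat at 5 of 6 times.

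Madcam1, the ligand of α4β7, was dim as well, at 7.80, 13.8 and 23.4 in old fat and 21.7, 23.2 and 39.5 in young fat (lowest, median and highest). The old 8 h array reached into the young range, so the ages overlapped. The difference was -0.50 ± 0.11 on the log2 scale, and it was -0.91 with 1 and -0.21 with 64 added in place of 16, so its size rests on the offset.

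Ltb, the lymphocyte cytokine gene, was bright in both ages, at 145, 298 and 670 in old fat and 335, 1021 and 1615 in young fat (lowest, median and highest). The old 12 h and 20 h arrays lay within the young range. The difference was -1.30 ± 0.31, ranging from -2.58 at 4 h to -0.22 at 16 h. For Glycam1, Chst3, Madcam1, Ltb and the brighter Chst4 probe, the old array was the lower at 6 of 6 harvest times. The genes were chosen by this contrast, so this order and the lack of overlap are descriptions. The share of all genes with such an order, or with no overlap of the ages, is not given here. Of all 15818 genes tested, 3803 differed between ages at an unadjusted p under 0.05 (limma).

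**Figure D1:**
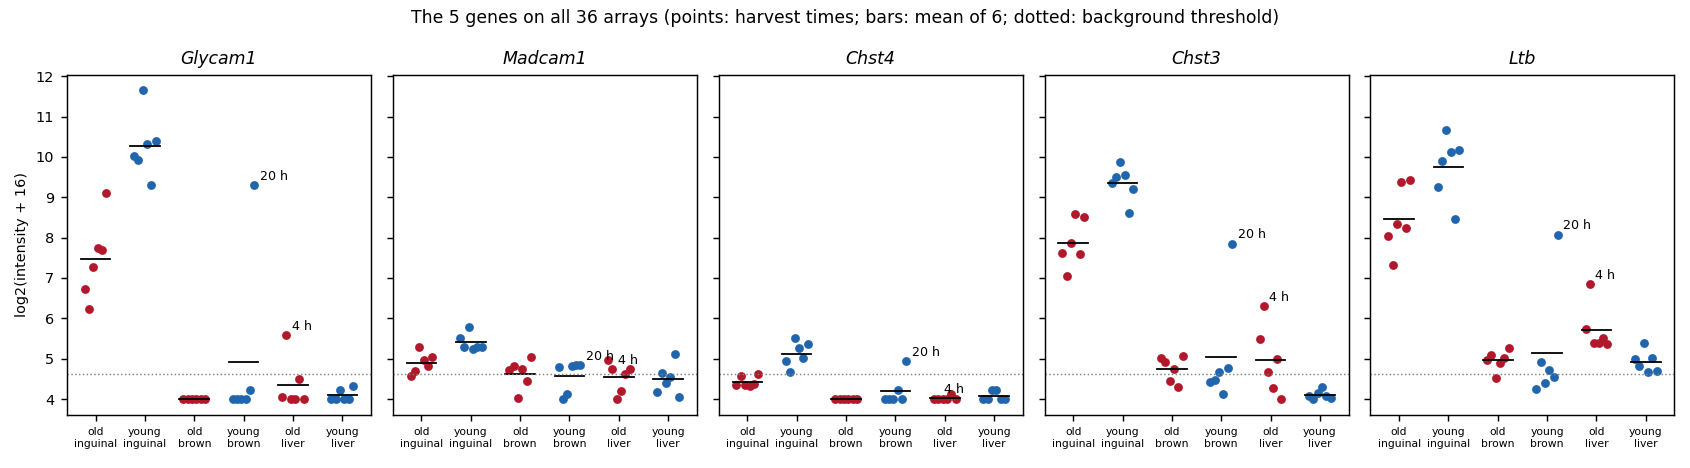
Log2 of the intensity plus 16 (y axis) of the 5 genes on the 36 arrays, with old (red) left of young (blue) in inguinal fat, brown fat and liver; points are single arrays in order of harvest time, bars are means of 6 arrays, and the dotted line is the background threshold. Chst3 and Chst4 are drawn by their brighter probe. Glycam1 and this Chst3 probe separate the ages in inguinal fat. The young 20 h brown fat array and the old 4 h liver array stand above their groups for Glycam1, Chst3 and Ltb.

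Within each age the inguinal arrays moved up and down together for 3 of the genes. Over the 6 old arrays Chst3 and Ltb had a Pearson correlation of 0.99, and over the 6 young arrays of 0.88. Glycam1 and Ltb had correlations of 0.87 over the old and 0.87 over the young arrays, and Glycam1 and Chst3 of 0.82 and 0.83. Chst4, near background, had a correlation with Ltb of -0.02 over the old and 0.55 over the young arrays, and with Glycam1 of 0.28 and 0.72. Madcam1, also dim, had 0.50 and 0.78 with Glycam1 and 0.51 and 0.40 with Ltb. These are descriptions over few arrays that share their normalization, and no p is given.

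The ratio of Glycam1 to Ltb separated the ages, which the ratios of Glycam1 to Chst3 and of Ltb to Chst3 did not. The absolute size of a ratio of 2 probes has no meaning, and only its change across arrays is read. Glycam1 over Ltb had a lowest, median and highest value of 0.303, 0.429 and 0.794 on the old inguinal arrays, against 1.02, 1.45 and 1.99 on the young ones. The highest old value was below the lowest young value, so Glycam1 was lower in old fat also relative to Ltb on the same array. Glycam1 over Chst3 lay between 0.503 and 1.52 on the old and between 1.36 and 3.48 on the young arrays, the old 20 h array being above the young 4 h array. Ltb over Chst3 lay between 1.24 and 1.91 on the old and between 0.898 and 1.98 on the young arrays, ranges that overlap.

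**Figure D2:**
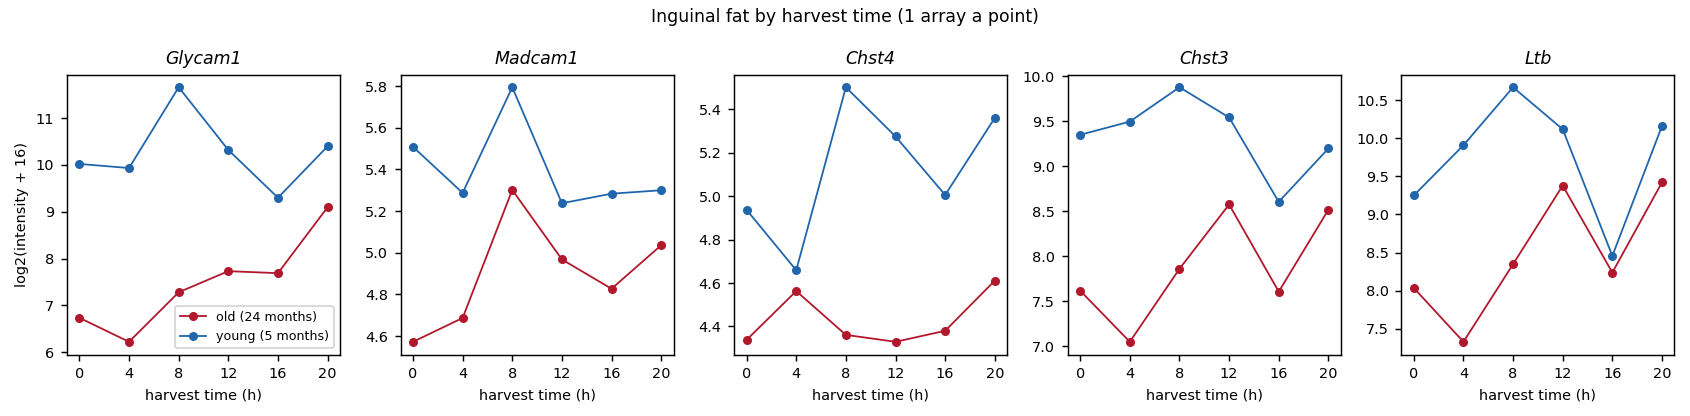
Log2 of the intensity plus 16 (y axes, scaled per gene and not starting at 0) of the 5 genes in inguinal fat against harvest time in hours (x axis), old in red and young in blue, 1 array a point. The old line lies below the young line at every harvest time in each panel, with the widest gap for Glycam1 at 8 h and the narrowest for Ltb at 16 h among the 3 bright genes.

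The genes closest to each of the 5 in inguinal fat were found by Pearson correlation over the 12 arrays, among 12031 named genes that pass the filter there. Age itself enters these values, since both ages are in the 12 arrays. Glycam1 was closest to Gal3st2 (0.99), Gsdmd (0.99), Sp100 (0.98), Ipcef1 (0.98) and the T cell gene Cd27 (0.98). Chst3 was closest to Cd8b1 (0.99), Tespa1 (0.99), Cd6 (0.99), Crlf3 (0.99) and Jakmip1 (0.98), and Ltb to Stat4 (0.98), Jpt1 (0.98), Sla (0.98), Cytip (0.98) and the T cell receptor complex gene Cd3g (0.98). Cd8b1 and Cd6 encode surface proteins of T cells. The dim genes had lower values. Chst4 was closest to Klra17 (0.92), Selenoh (0.91), Prmt3 (0.91), Tagap (0.90) and Tex30 (0.89), and Madcam1 to the ribosomal protein genes Rps21 (0.96) and Rps10 (0.95) and to Cyb561a3, Kctd14 and Helz2 (0.93 each). With the mean of each age removed, Cd8b1 remained at 0.97 with Chst3 and Gal3st2 at 0.96 with Glycam1, while Klra17 was at 0.70 with Chst4.

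Genes of the same pathways are given by list, without the 5 genes themselves. In inguinal fat 4.24% of the 15818 genes tested passed the threshold for age (limma, adjusted p under 0.05), 3.01% lower and 1.23% higher in old mice. The contrast is the one that chose the 5 genes, so the counts describe and support nothing. Of the 10 other high endothelial venule genes, 0 passed and 8 were lower in old fat (median -0.20, against -0.01 over all genes tested). Among them the fucosyltransferase gene Fut7 stood at -0.24 ± 0.12, the sialomucin gene Cd34 at -0.27 ± 0.13, and the sulfotransferase gene Chst2 at -0.17 ± 0.25. Of 9 other Chst genes 0 passed and 4 were lower (median 0.05), Chst10 standing at -0.63 ± 0.14.

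Of 5 homing chemokine genes 1 passed, Ccl21c at -1.37 ± 0.21. Ccl21a and Ccl19, which draw CCR7-bearing lymphocytes into the node, stood at -1.17 ± 0.30 and -1.15 ± 0.32, and Cxcl13, which draws B cells, at -0.83 ± 0.21. The near-identical Ccl21 genes may share signal on their probes. Of 8 homing receptor genes 2 passed, Itga4, the α4 integrin chain, at -0.62 ± 0.10 and Cxcr5, the receptor for CXCL13, at -1.23 ± 0.24, while Ccr7 stood at -0.92 ± 0.27. Of the 10 other genes of the lymphotoxin pathway 1 passed, Lta, which encodes the partner of lymphotoxin beta, at -1.07 ± 0.15. The receptor gene Ltbr stood at 0.15 ± 0.13 and Nfkb2 at -0.57 ± 0.16. Without the 0 h or the 12 h arrays no gene of these 3 lists passed, and with any 1 harvest time left out the chemokines had 0 to 1 calls, the receptors 0 to 1 and the lymphotoxin pathway, Ltb included, 0 to 2.

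Markers of T and B cells moved in the same direction. Of 12 T cell genes tested 9 passed, all lower in old fat (median -1.30), with Cd8b1 at -1.57 ± 0.22, Cd27 at -1.48 ± 0.22 and Cd3e at -1.30 ± 0.21. Cd8b1 was bright outside inguinal fat too, with medians of 1539 in brown fat (without young 20 h) and 1112 in liver (without old 4 h). On the young 20 h brown fat array it had 1589, so it did not follow Cd3e, which had 322 there against a median of 23.0. Of 13 B cell genes 9 passed, all lower (median -1.18), with Cr2 at -0.94 ± 0.15, Vpreb3 at -1.48 ± 0.24 and Cd79b at -1.26 ± 0.23. The summed intensity of the 14 T cell genes ran from 3013 to 6377 on the old and from 5498 to 13586 on the young arrays, and that of the 14 B cell genes from 2310 to 8943 on the old and from 6942 to 24824 on the young arrays. No T or B cell gene passed without the 0 h arrays or without the 12 h arrays. The part that lymphocytes, or the share of node in the sample, had in the values of the 5 genes was not tested.

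Lists of other cells gave few calls. Among 9 genes of blood endothelium 0 passed (median 0.10), Pecam1 standing at -0.03 ± 0.13, and among 6 of lymphatic endothelium, 7 of macrophages, 8 of white adipocytes and 7 of hepatocytes, 0 passed in each list. Of 11 milk and mammary genes listed 5 were tested. Of these 0 passed and all 5 were higher in old fat (median 0.70), led by the basal keratin gene Krt14 at 3.66 ± 1.22. The summed intensity of the 11 ran from 330 to 15143 on the old and from 9.31 to 1054 on the young arrays. A mammary part in the values of Glycam1 was not tested. Of 5 brown adipocyte genes 1 passed, Ucp1, which was below the background threshold on every old array. Ucp1 was at least 3.06-fold lower in old fat. It did not pass with any 1 harvest time left out.

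**Figure D3:**
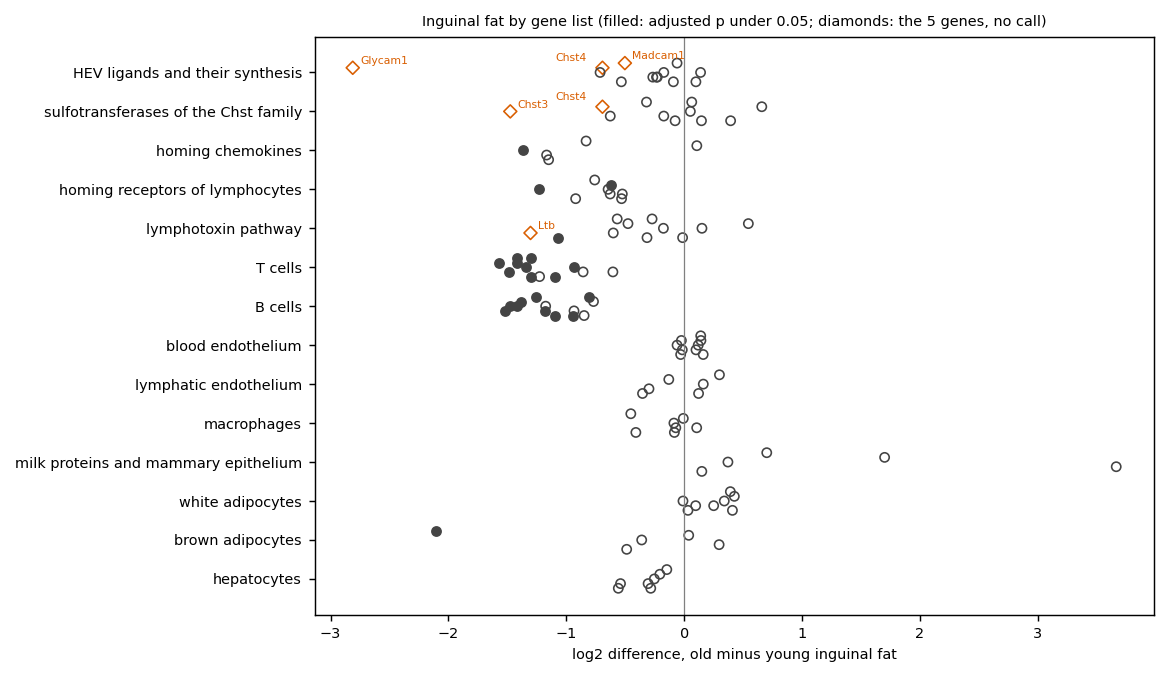
Log2 difference, old minus young inguinal fat (x axis), for the listed genes by list (rows), 1 point a gene; filled points passed the threshold of an adjusted p under 0.05, and the 5 genes are open orange diamonds with no call drawn. Glycam1 at -2.81 lies farthest to the left, T and B cell genes lie left of 0, and blood endothelium genes lie around 0.

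In brown fat no probe of the 5 genes exceeded an intensity of 22.3 on 11 of the 12 arrays, and the young 20 h array stood apart. On it Glycam1 had an intensity of 611, against at most 2.69 on the other 11 brown fat arrays. Since Glycam1 was above background on 0 of those 11, only a bound can be given, a log2 difference of at least 4.66. Its level there was above all 6 old inguinal arrays and below all 6 young inguinal arrays.

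Ltb had an intensity of 252 on the young 20 h array, against at most 22.3 on the others, and Chst3 had 214 against at most 17.4. On its brighter probe Chst4 had 14.6 against at most 2.61, and no other brown fat array was above background on that probe. The second Chst4 probe did not follow: it had 4.83 there, below background, and up to 8.69 in old brown fat. Madcam1 did not follow either: it had 12.6 on the young 20 h array and up to 16.7 on the other arrays. Glycam1 over Ltb was 2.42 on the young 20 h array, beyond the young inguinal range of 1.02 to 1.99.

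The same array was high in lymphocyte genes. Of all 19057 genes 1.77% were above background and at least 1 log2 unit over the median of the other 11 arrays. The share was 9 of 14 for T cells, 11 of 14 for B cells, 4 of 5 for homing chemokines, and 4 of 9 for homing receptors. Ccl21a had an intensity of 1957 there against at most 339 elsewhere in brown fat, Ccl19 had 687 against 82.4, Cd79b had 753 against 79.2, and Cd3e had 322 against 46.7. Of the 10 high endothelial venule genes other than the 5, 1 was past this size, Gcnt1, which encodes a glycosyltransferase of the ligands' sugars and was named after its values were seen. Of the 10 other lymphotoxin pathway genes 1 was, Lta, and of 11 other Chst genes 0 were. Of 6 lymphatic endothelium genes 1 was, Mmrn1, at 27.3 against up to 30.8 elsewhere in brown fat, and of 7 macrophage genes 1 was, Lyz2, both named after their values were seen. Of the 9 blood endothelium, 11 milk and mammary, 8 white adipocyte, 7 brown adipocyte and 8 hepatocyte genes, 0 were. Hoxc9, a positional gene looked up after its values were seen, had an intensity of 17.0 on this array, up to 11.8 on the other brown fat arrays and 550 to 1643 on the inguinal fat arrays. With 1 array of this kind there is no replicate check, and its source was not tested.

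**Figure D4:**
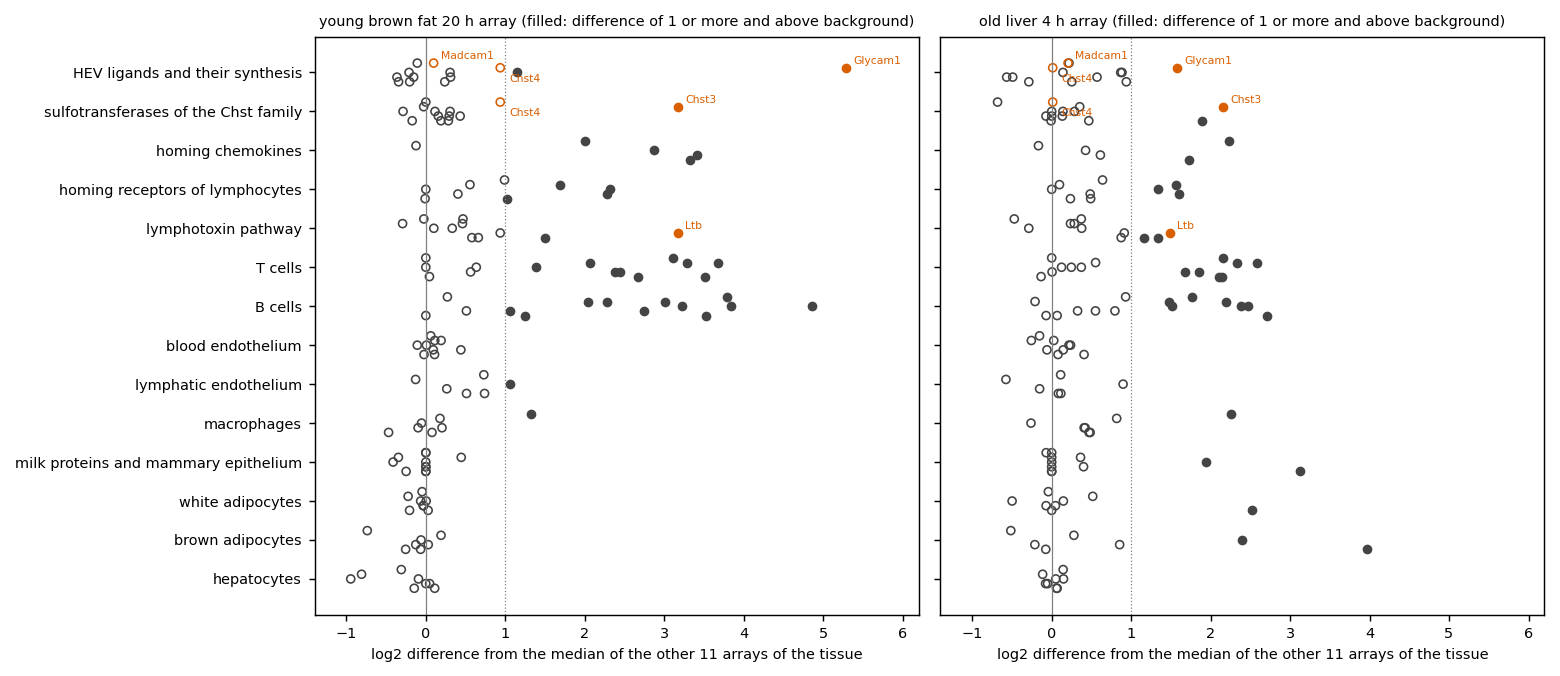
Log2 difference of the young 20 h brown fat array (left) and the old 4 h liver array (right) from the median of the other 11 arrays of the tissue (x axis), by gene list (rows), 1 point a gene; filled points were above background and at least 1 over the median (dotted line), and orange marks the 5 genes. Most but not all T cell, B cell and chemokine genes lie to the right of the line on the brown fat array. Glycam1 and Chst4, not above background on the other 11 arrays, are drawn at their measured difference. Only a lower bound of it holds (4.66 for Glycam1 on the brown fat array).

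Age was examined in brown fat for the 3 of the 5 genes that were above background on at least 6 of 12 arrays, Madcam1, Chst3 and Ltb, and none passed. In brown fat 0.36% of the 15815 genes passed without the young 20 h array, and 0.24% with it, these 38 genes all being higher in old mice. Ltb had intensities of 7.07, 15.9 and 22.3 in old brown fat (lowest, median and highest), against 2.95, 8.95 and 252 in young brown fat. It was higher in old mice at 5 of 6 times. Without the young 20 h array the Ltb difference, old minus young, was 0.33 ± 0.13 (SE, n = 5 harvest times with both ages, limma adjusted p = 0.645). With that array it was -0.19 ± 0.39, so its sign rests on that array.

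Chst3 behaved alike. Its intensities were 3.82, 12.6 and 17.4 in old and 1.32, 7.90 and 214 in young brown fat, and the difference was 0.20 ± 0.18 without the young 20 h array (limma adjusted p = 0.832) and -0.30 ± 0.39 with it. Madcam1 had intensities of 0.242, 10.5 and 16.7 in old and -0.759, 12.0 and 12.7 in young brown fat, with a difference of 0.03 ± 0.18 without the array (limma adjusted p = 0.982) and 0.06 ± 0.16 with it. The ages overlapped for all 3 genes. Glycam1 and Chst4 did not pass the filter, and on the 6 old brown fat arrays both were below background throughout. Of the listed pathway and cell type genes, 0 passed for age in brown fat with all 12 arrays.

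In liver only Ltb passed the filter, and its difference between ages did not pass the test. Ltb had intensities of 25.1, 28.0 and 99.5 in old liver (lowest, median and highest), against 9.38, 14.0 and 26.2 in young liver. The young 8 h array was just above 3 of the 6 old arrays, so the ages overlapped by that array. The difference was 0.78 ± 0.23, 1.71-fold, higher in old liver at 5 of 6 times (SE, n = 6 arrays each, limma adjusted p = 0.109), where 4.02% of the 15813 genes tested passed. Without the old 4 h array it was 0.53 ± 0.14 (adjusted p = 0.108), and over all alternatives tried the adjusted p ran from 0.0666 to 0.291.

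Chst3 was above background on 4 of 6 old and 0 of 6 young liver arrays, which left it below the filter of 6 arrays and untested. Its brighter probe had intensities of -6.29, 12.7 and 63.2 in old liver and -0.0664, 0.776 and 3.71 in young liver. Glycam1 was above background on 1 liver array of 12, the old 4 h array, at 31.9, and Chst4 on none with its brighter probe. Madcam1, with 3 of 6 old and 2 of 6 young arrays above background, had a median of 9.63 in old and 6.21 in young liver.

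Among the pathway lists in liver 3.41% of all genes tested passed as higher and 0.607% as lower in old mice. Of the 8 other lymphotoxin pathway genes tested 2 rose, the kinase gene Map3k14 (0.53 ± 0.10, limma adjusted p = 0.0261) and the NF-κB subunit gene Relb (0.83 ± 0.19, adjusted p = 0.0464), which act downstream of the lymphotoxin beta receptor. Neither passed without the old 4 h array. Of 5 homing chemokine genes Cxcl13 rose (2.38 ± 0.33, limma adjusted p = 0.00802), and of 10 high endothelial venule genes the sialyltransferase gene St3gal6 did (0.69 ± 0.10, adjusted p = 0.00897). Of 8 T cell genes 2 rose, of 9 B cell genes 4 and of 7 macrophage genes 3, and without the old 4 h array these counts were 3, 3 and 2. Of 8 homing receptor genes 1 rose, Itgb2, and 0 did without that array. Of 5 brown adipocyte genes 1 rose, Cidea, and of the other Chst, endothelial, mammary, white adipocyte and hepatocyte genes 0 passed. Map3k14, Relb, St3gal6, Itgb2 and Cidea were named after their values were seen.

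The old 4 h liver array was high in 3 of the 5 genes. Glycam1 had an intensity of 31.9 there against at most 6.47 on the other 11 liver arrays, Ltb had 99.5 against at most 37.6, and Chst3 had 63.2 against at most 29.3. Glycam1 over Ltb was 0.321 on this array, inside the old inguinal range. On this array 3.12% of all genes were above background and at least 1 log2 unit over the median of the others, and 7 of 14 T cell genes and 7 of 14 B cell genes were. Its largest differences, listed after the values were seen, were in genes of muscle (Myh8, Myl3), of squamous epithelium (Krt13, Krtdap) and of the exocrine pancreas (Clps, Pnliprp1, Cpa1). Myh8 had an intensity of 2267 against a median of 4.70 on the other liver arrays, and Clps had 1459 against 1.84. The part of such tissue in the values of Glycam1, Ltb and Chst3 was not tested.

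**Figure D5:**
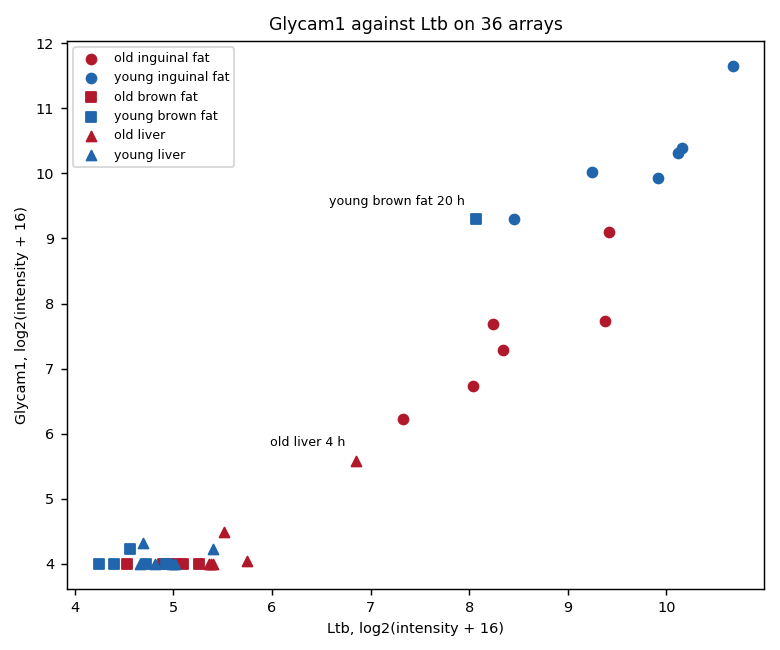
Glycam1 (y axis) against Ltb (x axis) on the 36 arrays, both as log2 of the intensity plus 16, old in red and young in blue, with circles for inguinal fat, squares for brown fat and triangles for liver. Old inguinal arrays lie lower than young ones at a like Ltb level, and the young 20 h brown fat and old 4 h liver arrays lie apart from the rest of their tissues, which sit near a Glycam1 value of 4.

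Brown fat was also set against liver over pairs of arrays matched by age and harvest time. Ltb, Chst3 and Madcam1 passed the filter. Here Chst3 was read by its second probe, the one otherwise called dimmer. That probe was above background on 3 of 6 old and 3 of 6 young brown fat arrays, the young 20 h array among them. In liver it was above background on 4 of 6 old and 0 of 6 young arrays. It therefore entered these fits only through the young 20 h array, also where that array is left out. Without the young 20 h brown fat array 70.4% of the 17270 genes tested differed, and Ltb was among them, lower in brown fat at -0.59 ± 0.14 on the log2 scale (SE, n = 11 pairs, limma adjusted p = 0.00174). Chst3 stood at -0.14 ± 0.18 (limma adjusted p = 0.502) and Madcam1 at 0.02 ± 0.11 (adjusted p = 0.876). With all 12 pairs 70.9% differed, 38.8% higher and 32.1% lower in brown fat. Ltb then stood at -0.26 ± 0.31 and did not pass (limma adjusted p = 0.464), so 1 array decides this call. The low brown fat values that the call rests on also entered the choice of the genes. The old 4 h liver array stayed in both fits, with Ltb at 99.5 against at most 37.6 on the other liver arrays. A fit without both arrays is not given here. Chst3 stood at 0.16 ± 0.31 and Madcam1 at 0.08 ± 0.12 with all pairs. Over all alternatives tried for Ltb the adjusted p ran from 0.00156 to 0.763.

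A rhythm with a 24 h period was looked for in all 5 genes in inguinal fat, in Ltb, Chst3 and Madcam1 in brown fat and in Ltb in liver, and none of these passed. In inguinal fat 0.0569% of the genes tested passed, in brown fat 0.158% without the young 20 h array and 0.221% with it, and in liver 2.02%. In inguinal fat the fitted amplitude, from the mean to the peak on the log2 scale, was 0.31 for Glycam1 and 0.28 for Ltb. It was 0.17 for Chst3, 0.13 for Madcam1 and 0.07 for Chst4, with limma adjusted p from 0.972 to 0.995 over the 5 genes. Chst4 was above background on 0 of 6 old and 6 of 6 young inguinal arrays. Its rhythm, or a difference of its rhythm between ages, therefore cannot be judged from these fits. In brown fat without the young 20 h array the amplitudes were 0.10 for Ltb (limma adjusted p = 0.891), 0.17 for Chst3 (adjusted p = 0.734) and 0.34 for Madcam1 (adjusted p = 0.483). With that array they were 0.66 for Ltb, 0.66 for Chst3 and 0.33 for Madcam1, with fitted peaks at 20.0, 20.7 and 19.1 h. In liver Ltb had an amplitude of 0.31 with a fitted peak at 4.10 h (limma adjusted p = 0.504), and 0.10 without the old 4 h array. A difference of rhythm between ages was found for 0 genes by limma in each tissue at an adjusted p under 0.05, with 724, 749 and 1243 at an unadjusted p under 0.05 in inguinal fat, brown fat and liver. Without the young 20 h array the brown fat count was 0 as well, with 698 unadjusted. The adjusted p for the genes tested ran from 0.828 to 0.926 in inguinal fat, liver, and brown fat without that array.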

How the data were processed

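The values used were probe intensities deposited by the authors, linear and background-subtracted, exported with BeadStudio per the submitters' processing notes (version not given there). Sorted, the 36 columns differed by at most 0.000374 of their value above an intensity of 100, so they had been quantile-normalized together; how is not given in the sources used here. A deposited scanner table has 144 columns whose names do not fix a sample, and these were not used. Values under 0 were set to 0, 16 was added and log2 taken. The noise SD, 5.35, was the root mean square of the values under 0, and the one-sided 5% point of a normal distribution with that SD, 8.80, was the background threshold. Probes above it on at least 6 of 12 arrays of a tissue entered the tests, with the brightest passing probe for each gene. Of 45281 probes 34885 had 1 gene symbol, 18 several and 10378 none.

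Tests used limma 3.58.1 in R 4.3.3 (lmFit, eBayes, 2-sided, Benjamini-Hochberg over all genes tested, threshold 0.05), with harvest time as a 6-level block for age, since the labels give 1 old and 1 young array at each time, leaving 5 residual degrees of freedom; the rhythm fit left 8. The arrays of a group come from different harvest times, so p-values measure the spread between such arrays. Brown fat fits are read without the young 20 h array, which helped choose the genes, and the fits with all arrays stand beside them. Neither kind of fit is independent of the choice. The code was tested on simulated data. The 5 genes and the 14 gene lists were chosen with earlier results of these data known. Named are the 5 genes, for each list the 3 genes of lowest adjusted p in inguinal fat and a set of defining genes, and the 5 genes most correlated with each of the 5; others are said to be chosen after their values were seen. Alternatives were the offset, floor, filter, probe choice, normalization, eBayes trend, block and left-out arrays.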

Additional observations from a re-analysis of the deposited data

Results flagged for a closer look

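Dixon's test at the 95% level was run on 28 groups of a gene, tissue and age. It flagged single arrays far from the other 5 of their group in 7 cases. A chance rate of about 1 in 20 holds only for independent groups of normal values, so the 7 cases cannot be weighed against it. Many values were at the lowest possible value of 4, the groups share arrays, and the young 20 h brown fat array helped choose the genes. On the young 20 h brown fat array the log2 values were 9.293 for Glycam1, 8.068 for Ltb, 7.846 for Chst3 and 4.937 for Chst4. The values of Chst3 and Chst4 are those of their brighter probes. The next highest values in the group were 4.224, 4.924, 4.767 and 4.218. The young 20 h array was known to be high when the genes were chosen. On the old 4 h liver array Ltb was at 6.852 and Glycam1 at 5.583, with next values of 5.744 and 4.49. On the old 16 h liver array Chst4 was at 4.135, next to 4.013, both below the background threshold.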

How the results depend on the processing

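In inguinal fat Glycam1 (-3.11 to -2.50), Chst3 (-1.63 to -1.28), Ltb (-1.52 to -1.05), Chst4 (-0.81 to -0.60) and Madcam1 (-0.55 to -0.42) stayed lower in old mice with any harvest time left out, while the number of genes past the threshold ranged from 0 to 408, being 0 without 0 h (limma, 2881 at an unadjusted p under 0.05). It was 318 with an offset of 1 and 80 without the filter on dim probes. For age in brown fat the count was 1 with an offset of 1, 4 with a floor of 16, 1 without the filter, 23 with probes above background on all arrays, and 3 to 57 with a harvest time left out. For age in liver it was 303, 167 and, with a harvest time left out, 281 to 422 (offset of 1, no filter), and 375 without the old 4 h array, an alternative chosen after seeing the data. Rhythm counts in inguinal fat were 2 (offset of 1), 1 (floor), 0 (no filter, 1502 unadjusted), 5 (mean of probes), 5 (intensity trend), 0 in old and 0 in young arrays alone (limma, 1068 and 289 at an unadjusted p under 0.05), and 0 to 12 with a time left out. In brown fat they were 9, 19 and 15 (offset of 1, floor, no filter), 0 and 0 in old and young arrays alone (2045 and 551 unadjusted), and 7 to 25. In liver they were 196 and 663 (offsets of 1 and 64), 147 (no filter), 517 (all arrays), 662 (trend), 0 and 1 in old and young arrays alone (1643 and 2072 unadjusted), and 53 to 218.

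Without the harvest time block, which pairs old and young arrays (no replicate block), 939 genes passed for age in inguinal fat, 29 in brown fat and 634 in liver; in liver macrophages had 5 against 3, T cells 1 against 2 and the lymphotoxin pathway 1 against 2. The block changed no call of the 5 genes in brown fat or liver. For Chst4 the difference in inguinal fat was -1.59 with an offset of 1, -0.26 with 64 and -0.34 with the floor. For brown fat minus liver, Ltb passed without the 20 h arrays (-0.64, limma adjusted p = 0.00156). In inguinal fat the T cell calls were 0 to 9 and the B cell calls 0 to 5 with a time left out, and both were 0 without the filter; in liver the lymphotoxin pathway had 0 or 1 call with a time left out. Chst4 and Madcam1 give no value where probes must be above background on all arrays. Normalization from scanner signals was not run.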
